A study of Mus musculus with 10 samples.

Results

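The genes described here are 10 transcription factors of the hair matrix, the pool of dividing cells at the base of the growing hair follicle. They were taken by name as known regulators; the rule uses no measured value, but the list was drawn up with earlier results of these data known: Foxn1, Hoxc13, Msx1, Msx2, Dlx3, Gata3, Lef1, Foxe1, Ovol1 and Cux1. Of the 10 genes, 9 had a named row among 19505 genes, each with 1 probe set; Gata3 had none in the probe table used and was not analysed here. Expression was measured in whole skin of C57BL/6J mice, 9 weeks old at the start, on 10 arrays with 1 array per condition. For 8 arrays the skin came from above a silicone tissue expander implanted beneath the back: in the 4 expanded samples PBS, a buffered salt solution, was injected to enlarge it step by step, while the expanders of the 4 non-expanded samples received no PBS. Both arms were sampled once at each of 4 times, namely 0, 7, 14 and 21 days after the expander was fully injected. The other 2 arrays hold skin of mice without surgery, labelled wild type, of which 1 was in telogen (follicles at rest) and 1 in anagen (follicles growing hair). Pooling of animals is not stated in the labels, nor is a hair stage for the expander samples.

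In anagen, matrix cells divide and then differentiate into the concentric layers of the hair shaft and the inner root sheath. Wnt and BMP signals drive that step, and the listed factors act within it: Lef1 is a DNA-binding partner of beta-catenin, Msx1, Msx2, Dlx3 and Hoxc13 are homeobox factors, Foxn1 and Foxe1 are forkhead factors, Ovol1 is a zinc finger factor of differentiating epithelium and Cux1 is a cut-homeobox factor of the inner root sheath. Loss of Foxn1 is the cause of the nude mouse, whose hair shafts break at the skin surface. In telogen the matrix is gone and only the resting follicle remains. In whole skin, fewer cells of a type and less RNA per cell cannot be told apart.

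Values are log2 probe-set signals as deposited, and a difference of 1 log2 unit is a factor of 2 on that scale. Array medians lay between 6.27 and 6.45. The 23 background probe sets ranged from 2.57 to 6.66 with a median of 5.46, so a signal near or below 5.46 is close to background and its differences may be understated. Genes with a mean under 4.86, the 30th percentile, were left out of the tests, which kept 13653 genes. Of the 9 factors, 5 passed (Foxn1, Msx2, Dlx3, Ovol1 and Cux1) and 4 did not (Hoxc13, Msx1, Lef1 and Foxe1). Msx2 lay below 5.46 on 8 of 10 arrays and passed only through its anagen value. Levels are compared between arrays within a gene, never between genes, because probe sets differ in their response. Keratin 31 (Krt31) of the hair shaft, used to check the labelled stages, read 6.42 in telogen and 17.29 in anagen. The latter is above 16, the limit of a 16-bit scanner, so the size of that difference is in doubt.

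The promoters of Lef1, Msx1 and Msx2 are shown because these are the factors whose outermost RefSeq start has a window. Lef1 and Msx2 rose above the background median in anagen, while Msx1, the close relative of Msx2, was above it on none of the 10 arrays, so its response could not be measured. Each is the 250 bases before the outermost RefSeq start of the gene (build GRCm38.p6), 5′ to 3′ on the gene's strand. The windows are chr3:131110047-131110296 on the plus strand for Lef1, chr5:37824586-37824835 on the minus strand for Msx1 and chr13:53472781-53473030 on the minus strand for Msx2. Capitals mark matches to any of the motifs searched on both strands.
Lef1: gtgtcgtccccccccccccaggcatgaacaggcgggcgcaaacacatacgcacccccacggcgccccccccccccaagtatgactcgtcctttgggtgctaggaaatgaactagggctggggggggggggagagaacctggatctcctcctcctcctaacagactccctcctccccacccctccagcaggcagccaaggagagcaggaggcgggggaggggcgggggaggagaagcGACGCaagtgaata
Msx1: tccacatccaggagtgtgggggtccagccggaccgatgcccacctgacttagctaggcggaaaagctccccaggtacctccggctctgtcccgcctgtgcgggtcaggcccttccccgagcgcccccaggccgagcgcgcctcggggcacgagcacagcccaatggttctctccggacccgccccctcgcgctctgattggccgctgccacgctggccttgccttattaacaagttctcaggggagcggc
Msx2: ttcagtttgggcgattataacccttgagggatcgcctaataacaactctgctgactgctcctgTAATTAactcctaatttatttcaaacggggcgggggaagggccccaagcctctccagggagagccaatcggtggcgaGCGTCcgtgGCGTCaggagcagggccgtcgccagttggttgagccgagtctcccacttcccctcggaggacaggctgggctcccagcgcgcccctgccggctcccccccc

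The LEF/TCF letters searched were CTTTGAA, with CTTTGAT as another form, CTTTGTA as the next and CTTTGTT as the last. The homeodomain letters were TAATTA, with TAATTG as the other form. For HOX group 13 factors the motif was TTTATNG, for the forkhead of Foxn1 it was GACGC, and for the TATA box it was TATAAA. The HOX group 13 and TATA letters can overlap on opposite strands. Lef1 held GACGC 10 to 14 bases before its start, Msx2 held it on the other strand at 97 to 101 and at 106 to 110 bases, and Msx1 held none of the motifs. Msx2 also held TAATTA 182 to 187 bases before its start. Among 32851 windows of the same length before all RefSeq starts, 22.6% held GACGC, 11.3% the homeodomain letters, 14.8% the LEF/TCF letters, 9.81% TTTATNG and 12.4% the TATA box, so such matches are common. The GC content was 66.4%, 68.0% and 61.6% in Lef1, Msx1 and Msx2, against a median of 52.4% over all windows. RefSeq windows were found for 5 of the 9 factors, with 8 starts in all. Those of Foxn1 and Cux1 and the 3 inner starts of Lef1 lie inside a longer gene model and are not printed. The Foxn1 window (chr11:78386609-78386858, minus strand) held TAATTA 24 to 29 bases before its start.

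All 9 factors were at their highest on the anagen array, as were 25.7% of the genes tested. The largest contrasts were those of Dlx3, Foxn1 and Msx2. Dlx3, which acts upstream of hair keratin genes (chromosome 11, 95120117 to 95125296), read 5.77 in telogen and 13.93 in anagen, a difference of 8.16 log2 units. Foxn1 (chromosome 11, 78357577 to 78386783) read 6.08 and 13.69, a difference of 7.61. Msx2, a BMP target in the matrix (chromosome 13, 53466881 to 53472780), read 4.28 and 11.67, a difference of 7.39. Among the genes tested, only 76 and 87 had differences at least as high as those of Dlx3 and Foxn1, each counting the gene itself. Msx2 entered the genes tested only through its anagen value, so its rank among them is not given.

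The remaining factors stood higher in anagen by smaller amounts. Hoxc13, which binds hair keratin promoters (chromosome 15, 102921131 to 102928814), read 3.56 in telogen, below the background median, and 8.17 in anagen. Lef1 (chromosome 3, 131110297 to 131224357) read 4.92 and 9.37. Ovol1 (chromosome 19, 5549137 to 5560575) read 6.47 and 10.32, and Cux1 (chromosome 5, 136248135 to 136567590) read 11.47 and 14.55. These are differences of 4.61, 4.45, 3.85 and 3.08 log2 units. Foxe1, a forkhead factor known for hair follicle and thyroid development (chromosome 4, 46343644 to 46345774), read 4.38 and 6.35, a difference of 1.97. Msx1 (chromosome 5, 37820491 to 37824585) read 4.44 and 5.40 and stayed below the background median on all 10 arrays. Its difference of 0.97 is therefore not a measured response.

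Of the 9 factors, 8 were at least 1 log2 unit higher in anagen than in telogen, against 23.5% of the genes tested, and 0 of 9 were at least 1 log2 unit lower, against 20.4%. Their median difference was 4.45 log2 units, against -0.16 over all 19505 genes and -0.01 over the genes tested. With 1 array a side there is no replicate check and no p-value. The median of all genes moved to -0.24 with each array centred on its median and to -0.02 with quantile normalization, which is small beside these differences.

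**Figure D1:**
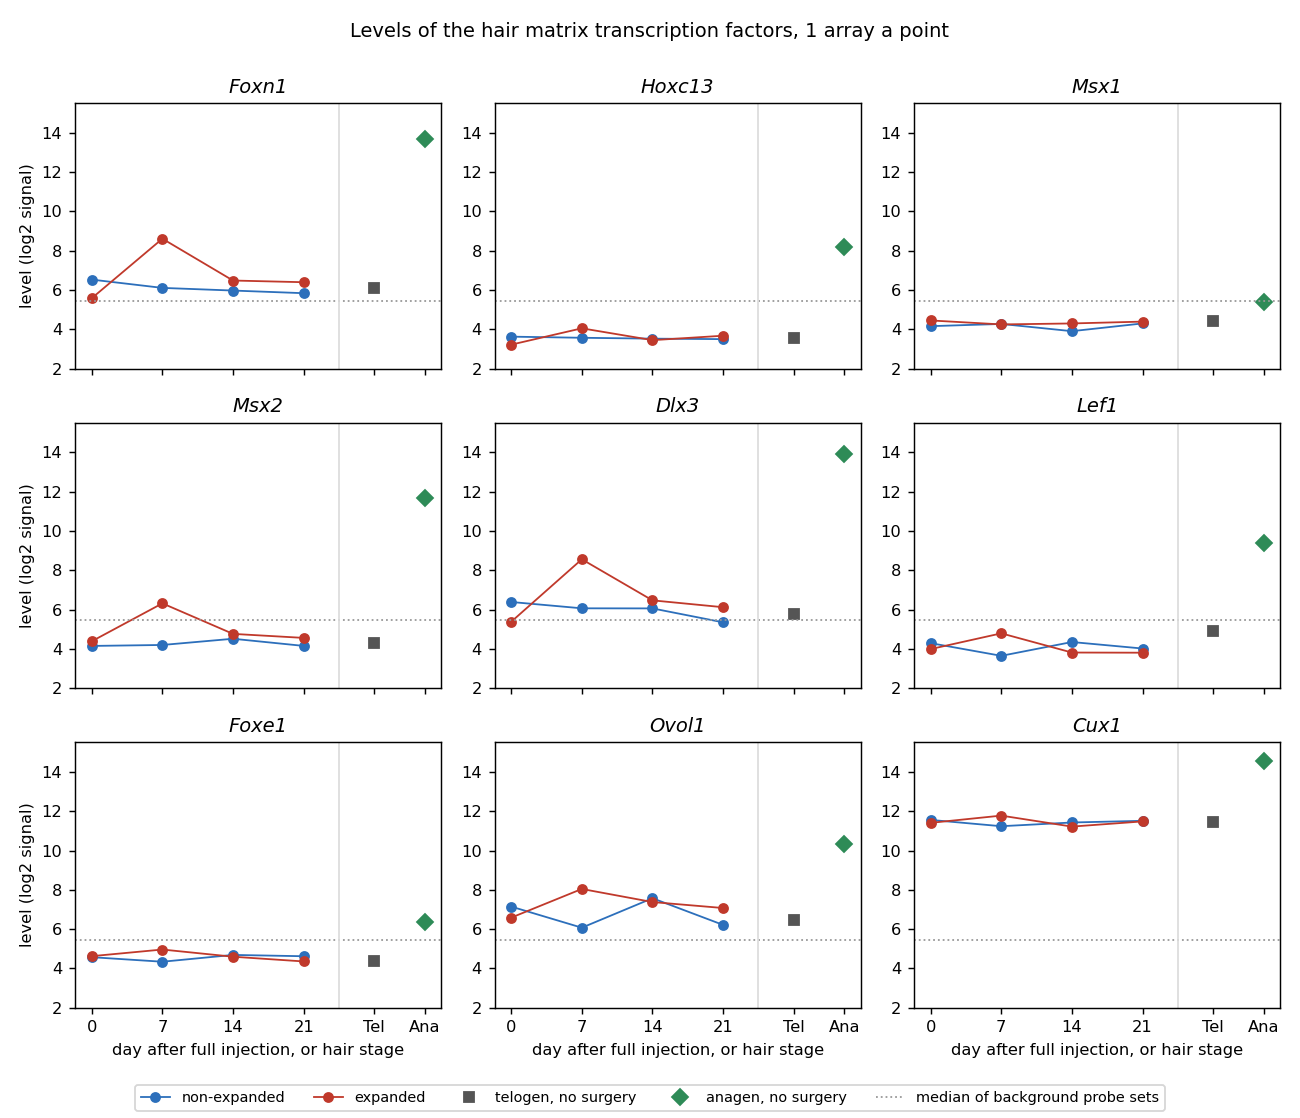
Level of each of the 9 factors (log2 signal, vertical axis) by day after full injection in the non-expanded arm (blue) and the expanded arm (red), with the telogen array (grey square) and the anagen array (green diamond) at the right; each point is 1 array and the dotted line is the background median of 5.46. The anagen value lies above all 9 other arrays for every factor, and the expanded array of day 7 stands above the other expander arrays for Foxn1, Msx2, Dlx3 and Ovol1.

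Over the expander, in both arms, the factors stayed near their telogen levels on most days. Foxn1 read 6.53, 6.11, 5.97 and 5.84 in non-expanded skin at days 0, 7, 14 and 21, and 5.58, 8.61, 6.48 and 6.40 in expanded skin. Dlx3 read 6.38, 6.06, 6.06 and 5.35 in non-expanded skin, and 5.38, 8.56, 6.47 and 6.12 in expanded skin. Msx2 read 4.15, 4.20, 4.51 and 4.15 in non-expanded skin, and 4.38, 6.31, 4.76 and 4.56 in expanded skin. In all 3 the expanded array of day 7 was the highest of the 8 expander arrays. The arms overlapped for Foxn1, Dlx3 and Msx2.

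Ovol1 varied more within the non-expanded arm, with 7.15, 6.07, 7.57 and 6.21 at days 0, 7, 14 and 21, against 6.58, 8.04, 7.38 and 7.07 in expanded skin. Lef1 read 4.29, 3.64, 4.35 and 4.02 in non-expanded skin and 3.99, 4.79, 3.81 and 3.80 in expanded skin, so all 8 expander arrays lay under its telogen value of 4.92. All of these Lef1 values, telogen included, were below the background median, so their order is not a measured fall. Hoxc13 read 3.62, 3.57, 3.52 and 3.50 in non-expanded skin, and 3.22, 4.05, 3.45 and 3.67 in expanded skin. Every one of these 8 Hoxc13 values was below the background median. Cux1 was measured well above background and hardly varied outside anagen: it read 11.56, 11.24, 11.43 and 11.51 in non-expanded skin, and 11.41, 11.78, 11.22 and 11.48 in expanded skin. Foxe1 ranged from 4.34 to 4.69 in non-expanded and from 4.35 to 4.96 in expanded skin, and Msx1 from 3.90 to 4.30 and from 4.25 to 4.45. These Foxe1 and Msx1 values were all below the background median too. The arms overlapped for all 9 factors; of the genes tested, 2.97% had all expanded arrays above all non-expanded ones and 1.87% had all of them below.

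Placed on a scale from telogen (0%) to anagen (100%), in percent of the log2 difference between those 2 arrays, the expanded array of day 7 lay part of the way up for most factors. The scale was used for the 8 factors whose stages differed by at least 1 log2 unit, which leaves out Msx1. On that array Ovol1 stood at 40.8%, Dlx3 at 34.2%, Foxn1 at 33.2%, Foxe1 at 29.5%, Msx2 at 27.6%, Hoxc13 at 10.5% and Cux1 at 9.89%, with Lef1 at -2.94%. The median was 28.5%. For Foxe1, Hoxc13 and Lef1 both the telogen and the day 7 signal lay below the background median, and for Msx2 the telogen signal did, so their positions and the median are approximate. Only those of Ovol1, Dlx3, Foxn1 and Cux1 rest on signals above it. In telogen Ovol1, Dlx3 and Foxn1 still read within the range of the background probe sets, which reached 6.66. Of the 8 factors, only Cux1 read above that range in telogen. On the other 3 expanded arrays the medians were -3.43%, 5.89% and 3.05% at days 0, 14 and 21, and on the non-expanded arrays they lay between -2.49% and 4.31%. Ovol1 also reached 28.6% on the non-expanded array of day 14. Leaving out anagen, the expanded array of day 7 was the highest of the remaining 9 arrays for 7 of 9 factors, all but Msx1 and Lef1, against 9.92% of the genes tested.

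**Figure D2:**
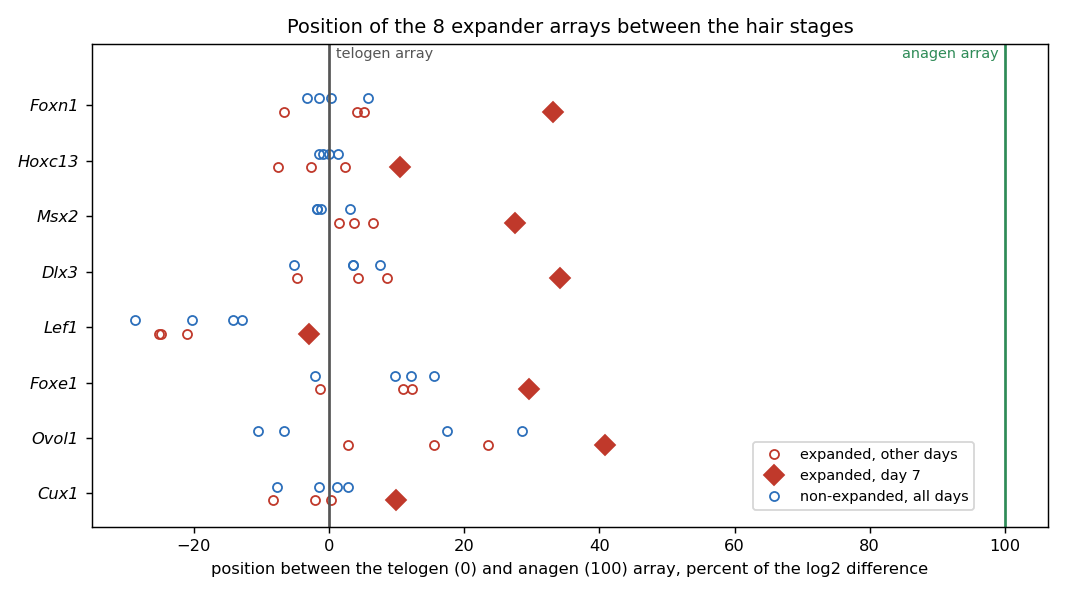
Position of each of the 8 expander arrays between the telogen array (0) and the anagen array (100), in percent of the log2 difference, for the 8 factors that differed by at least 1 log2 unit between those stages; each symbol is 1 array. The filled red diamonds of expanded day 7 lie furthest right for every factor, from -2.94% for Lef1 to 40.8% for Ovol1, and no expander array comes near 100%.

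The expansion effect is the mean difference of the expanded from the non-expanded arm, with arrays of the same day paired. None of the 5 factors tested passed, and none of the 13653 genes did (limma, 0.0% called in either direction; at unadjusted p under 0.05, 4.83% of genes were higher and 3.98% lower, and 0 of the 5 factors passed that mark). The mean of Msx2 was 5.0 ± 0.89 over the expanded and 4.25 ± 0.18 over the non-expanded arrays (SD, n = 4 per arm), a difference of 0.75 ± 0.37 (SE; limma adjusted p = 0.618). Dlx3 averaged 6.63 ± 1.36 and 5.96 ± 0.44, a difference of 0.67 ± 0.53 (adjusted p = 0.743). Foxn1 averaged 6.77 ± 1.29 and 6.11 ± 0.30, a difference of 0.66 ± 0.52 (adjusted p = 0.744). Ovol1 differed by 0.52 ± 0.44 (adjusted p = 0.752) and Cux1 by 0.04 ± 0.23 (adjusted p = 0.976), the latter turning to -0.02 with quantile normalization. Without the pairing by day 2 genes were called higher (0.0146%) and no factor was.

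All 9 factors had a difference above 0, with a median of 0.19 against -0.02 over all genes. The share of all genes above 0 is not given here, and Lef1, Hoxc13, Foxe1 and Cux1 differed by less than their SE. Leaving out day 7 made the difference smaller or turned it below 0 for every factor but Msx1, which rose to 0.26. Without day 7 the differences were 0.04 for Foxn1, 0.06 for Dlx3, 0.03 for Ovol1 and -0.13 for Cux1, and 5 of 9 factors were above 0 with a median of 0.03. Msx2 differed by 0.30 ± 0.24 (limma adjusted p = 0.639). Without day 0, on which the expanded arrays of Foxn1 and Dlx3 were lower, their differences were 1.19 ± 0.47 and 1.23 ± 0.46 (adjusted p = 0.541 and 0.527). Among the factors under the level filter, fitted with no filter, Hoxc13 differed by 0.04 ± 0.22, Lef1 by 0.02 ± 0.31, Foxe1 by 0.08 ± 0.22 and Msx1 by 0.19 ± 0.19, with limma adjusted p-values from 0.798 to 0.988.

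On single days, compared with 1 array a side and no test, the arms parted at day 7. There 5 of 9 factors were at least 1 log2 unit higher in expanded skin, against 8.45% of the genes tested (9.43% were lower by as much): Foxn1 by 2.50, Dlx3 by 2.50, Msx2 by 2.12, Ovol1 by 1.97 and Lef1 by 1.15. The difference of Lef1 rests on its lowest non-expanded value of 3.64, and both Lef1 arrays lay below the background median. The non-expanded value of Msx2, 4.20, also lay below that median. Those of Foxn1, Dlx3 and Ovol1, at 6.11, 6.06 and 6.07, lay within the range of the background probe sets, which reached 6.66. The sizes of these differences are therefore approximate. At day 0 the difference lay below 0 for 6 of 9 factors, with Dlx3 at -1.01 and Foxn1 at -0.95; at least 1 log2 unit lower were 1 of 9 factors and 6.18% of genes, and higher 0 of 9 and 9.49%. At days 14 and 21 no factor differed by 1 log2 unit, where 11.4% and 6.69% of genes were higher and 8.85% and 6.13% lower by as much, and the medians of the 9 were -0.08 and 0.17. The highest value of day 21 was 0.86 for Ovol1.

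**Figure D3:**
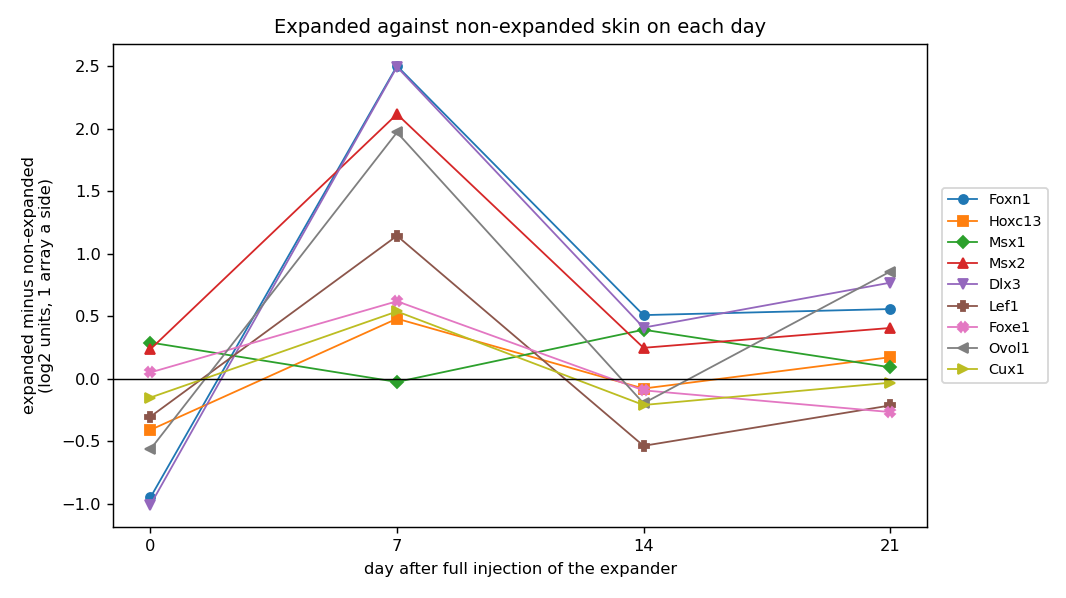
Expanded minus non-expanded level (log2 units, vertical axis) of each of the 9 factors at days 0, 7, 14 and 21 after full injection, with 1 array a side and the points of a factor joined. Foxn1, Dlx3, Msx2 and Ovol1 reach 1.97 to 2.50 at day 7, while Msx1 stays at -0.02 on that day.

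Straight lines over the days were not told apart from flat in either arm for any factor tested, and 0 of 13653 genes passed in limma (at unadjusted p under 0.05, 339 genes in expanded and 495 in non-expanded skin, none of them a factor). These unadjusted marks were passed by 1.18% of genes upward and 1.3% downward in expanded skin, by 1.98% and 1.64% in non-expanded skin, and by 0.542% and 0.674% for the difference between the slopes. Over 21 days Foxn1 changed by 0.09 ± 1.16 in expanded and by -0.66 ± 1.16 in non-expanded skin (SE), and Dlx3 by 0.04 ± 1.22 and -0.93 ± 1.22. The difference between the slopes was 0.76 ± 1.64 for Foxn1 and 0.97 ± 1.73 for Dlx3 (limma adjusted p = 0.9995 for both). A straight line cannot follow a peak at day 7: without day 0 the expanded slopes of Foxn1 and Dlx3 turned to -3.32 and -3.66, also not past the threshold (adjusted p = 0.646 and 0.595).

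Against skin without surgery, both arms averaged below for all 9 factors, but without the anagen array 4 of 9 in non-expanded and 6 of 9 in expanded skin lay above the telogen reference. The no-surgery group holds 1 telogen and 1 anagen array, and the arms share it. In non-expanded skin Foxn1 differed by -3.78 ± 1.60, Dlx3 by -3.88 ± 1.72, Msx2 by -3.72 ± 1.49, Cux1 by -1.58 ± 0.64 and Ovol1 by -1.65 ± 0.89 (SE; limma adjusted p from 0.272 to 0.398). In expanded skin they differed by -3.12 ± 1.60, -3.22 ± 1.72, -2.97 ± 1.49, -1.54 ± 0.64 and -1.13 ± 0.89 (adjusted p from 0.270 to 0.586). None passed. Over all genes tested, 0.0% were called in either direction in non-expanded skin, and 0.0293% were called lower and 0.447% higher in expanded skin. At unadjusted p under 0.05, 6.28% of genes were lower and 9.42% higher in non-expanded skin, and 5.69% and 10.7% in expanded skin. Among the lower ones were 4 of the 5 factors in non-expanded and 1 in expanded skin. Msx2 is among the 4, but it passed the filter only through its anagen value. That array is part of the reference, so the lower values of Msx2 in both arms were favoured by the filter.

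With the telogen array left out, so that anagen alone was the reference and was assumed to vary like the arms, Foxn1, Dlx3, Ovol1 and Cux1 were called lower in both arms. Msx2 was called too, but it entered the test only through its anagen value, so that call was set by the filter and is not counted. In non-expanded skin the log2 difference from anagen was -7.97 ± 0.94 for Dlx3 (SE; limma adjusted p = 0.00104). It was -7.58 ± 0.88 for Foxn1 (adjusted p = 0.001), -3.57 ± 0.65 for Ovol1 (0.007) and -3.12 ± 0.31 for Cux1 (0.00058). In expanded skin they were -7.30 for Dlx3, -6.93 for Foxn1, -3.05 for Ovol1 and -3.08 for Cux1 (adjusted p from 0.00086 to 0.017). In this fit 11% of all genes tested were called lower and 8.44% higher in non-expanded skin, and 7.27% and 6.34% in expanded skin. With anagen left out instead, so that telogen was the reference, Msx2 fell under the level filter and none of the other 4 passed: Foxn1 differed by 0.03 ± 0.88 in non-expanded and 0.68 ± 0.88 in expanded skin, and Dlx3 by 0.20 ± 0.94 and 0.86 ± 0.94 (adjusted p from 0.621 to 0.993).

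Structural genes of the hair, among them known targets of these factors, stood higher on the same expanded array of day 7. Hair shaft keratins, of which 10 of 13 listed were measured, were all at least 1 log2 unit above non-expanded skin at day 7, with a median difference of 5.18. The inner root sheath genes, the sleeve that moulds the shaft, did so for 9 of 9 genes, by a median of 7.39. Of the genes tested, 8.45% were higher by as much. On non-expanded day 7 these lists averaged 4.29 and 4.81, below the background median, so the sizes are approximate. Trichohyalin (Tchh), a structural protein of the sheath, read 4.97 on the non-expanded array, below the background median, and 17.16 on the expanded one, above the scanner limit of 16, so the size of its difference is in doubt. On the telogen to anagen scale the medians of these lists on that array were 46.0% and 54.9%. In telogen the shaft keratins averaged 4.99, below the background median, and the inner root sheath genes 7.04. In anagen the inner root sheath genes averaged 16.90, above the scanner limit, as were Krt31 at 17.29 and Krt33a at 16.37 of the shaft list. Both positions are therefore approximate. Krt35, a keratin of the lower hair shaft, read 3.99 in telogen, 8.02 on expanded day 7 and 14.28 in anagen. In the expansion effect 10 of 10 shaft keratins and 9 of 9 inner root sheath genes had a difference above 0, with medians of 1.10 and 1.74, and none passed.

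Inner root sheath genes were also high on the non-expanded array of day 14. There the inner root sheath list averaged 8.66, against 4.81 to 4.90 on the other non-expanded arrays and 7.04 in telogen, and Tchh read 13.48. Of the 9 factors 4 were at their highest of that arm on this array, namely Msx2 at 4.51, Ovol1 at 7.57, Lef1 at 4.35 and Foxe1 at 4.69. All of these but Ovol1 lay below the background median there. Foxn1, Dlx3, Hoxc13 and Cux1 were highest of that arm at day 0 and Msx1 at day 21. The share of all genes that were highest on the day 14 array was not counted, so the 4 cannot be set against it. The arms at day 14 differed by -3.28 in the median of the inner root sheath list, with 9 of 9 genes lower in expanded skin.

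Melanocyte genes, which color the anagen hair, did not stand high on expanded day 7. Of 8 measured, all were at least 1 log2 unit higher in anagen than in telogen with a median of 5.51, but on expanded day 7 their median position was -19.4%. It was below 0 on every expander array, from -24.1% on expanded day 14 to -5.71% on non-expanded day 14. On non-expanded day 7 it was -22.4%. Between the arms at day 7, 5 of the 8 were higher and 3 lower in expanded skin, with a median difference of 0.26. Dct, a pigment enzyme gene, read 8.94 in telogen, 7.71 on expanded day 7 and 15.73 in anagen. Cell cycle genes averaged 8.74 on expanded day 7, against 7.21 to 8.32 on the other expanded arrays and 10.19 in anagen. They averaged 7.13 to 8.38 in non-expanded skin and 6.98 in telogen, so every expander array stood above telogen.

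Several factors also act outside the matrix, and markers of such cells followed them only in part. Wound epidermis genes averaged 13.70 on expanded day 7, the highest of the 10 arrays. They averaged 12.06 on expanded day 14 and 7.66 to 11.68 in non-expanded skin. On expanded day 14 the median position of the factors was 5.89%, with Ovol1 at 23.5%. Transcription factors of the epidermis averaged 10.79 on expanded day 7 and more, 11.02, on expanded day 14, against 9.91 to 10.64 in non-expanded skin and 11.27 in anagen. T cell genes, of interest because T cells also make Lef1, averaged 7.32 on expanded day 7, 7.29 on expanded day 0, 6.64 to 7.22 in non-expanded skin and 5.73 in anagen. Skeletal muscle genes averaged 13.58 on expanded day 7, 13.98 on expanded day 14, 12.98 in anagen and 15.99 to 16.76 in non-expanded skin. The part of these cell types in the levels of the factors was not tested.

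**Figure D4:**
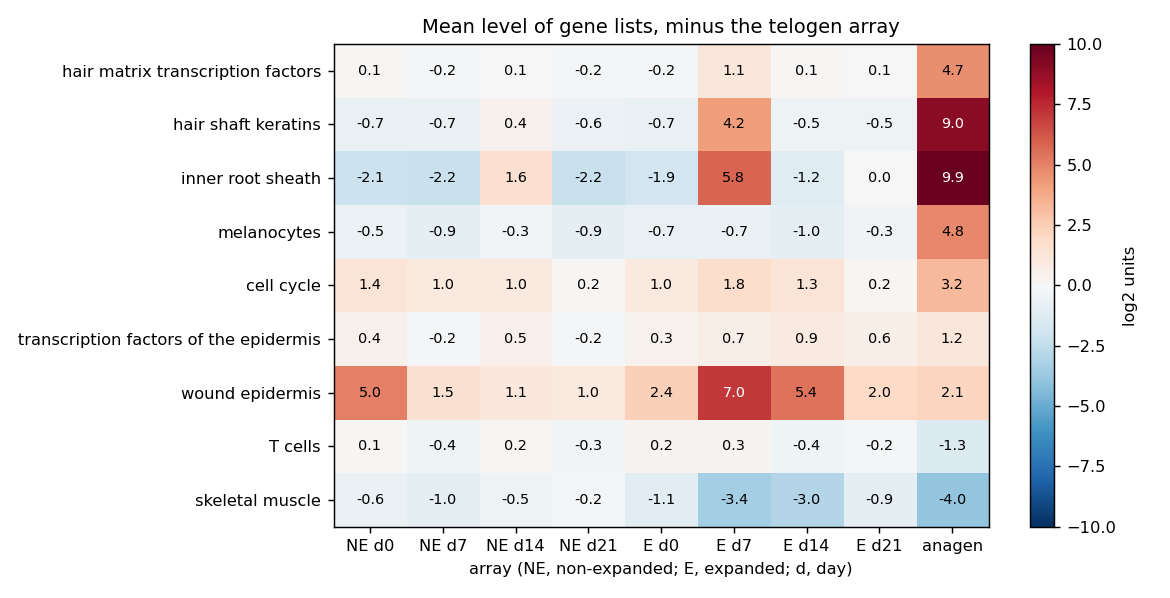
Mean log2 level of the 9 factors and of 8 gene lists on each array, minus the same mean on the telogen array (log2 units, colour and printed value); NE is non-expanded, E is expanded and d is day. The factors stand 1.1 above telogen on expanded day 7 and 4.7 in anagen, the inner root sheath 5.8 and 9.9, and the melanocyte list -0.7 and 4.8.

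Signals upstream of the matrix were mostly higher in anagen, and between the arms they went in both directions with more above 0. Over all genes the median was -0.16 between the stages and -0.02 between the arms. Of 17 measured Wnt and BMP genes, 14 were higher in anagen (median 0.94) and 13 had a difference above 0 in the expansion effect (median 0.27), with none called. Nkd2, a Wnt antagonist gene, differed by 0.79 ± 0.22 between the arms, and Id1, a BMP target, by 1.23 ± 0.35 (SE; limma adjusted p = 0.408 and 0.429). Wnt5a was 3.80 log2 units higher in anagen. Of 14 genes of the Shh, Eda and Notch pathways, 11 were higher in anagen (median 1.23) and 9 had a difference above 0 between the arms (median 0.14). Notch1, a receptor active in matrix differentiation, differed by 0.97 ± 0.31 between the arms (adjusted p = 0.472) and by 3.44 between the stages.

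Other transcription factors of the follicle were spread over both directions between the arms. Of 23 measured, 17 were higher in anagen (median 1.00), with Dlx2, Sp6 and Prdm1 at 5.82, 5.74 and 4.07 log2 units. Between the arms 13 of 23 had a difference above 0 (median 0.07), and none was called. Runx1, a regulator of follicle stem cells, differed by 1.53 ± 0.38 and Tfap2a, from the list of epidermal factors, by 1.30 ± 0.32 (limma adjusted p = 0.37 for both). Of 8 bulge stem cell markers, which belong to the resting compartment, 5 were lower in anagen (median -1.77).

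The genes nearest to a factor in pattern over the 10 arrays were found by the root mean square difference of centred log2 values. In this measure the anagen array weighs most. Only the 13653 genes past the level filter were searched. Msx2 passed that filter only through its anagen value, and Krt82 read 12.13 in anagen against 3.52 to 6.39 on the other arrays. Such matches are therefore partly set by the anagen array. Foxn1 and Dlx3 were each other's nearest gene, 0.20 log2 units apart. The next for Foxn1 were Krt84, a keratin of hair and tongue epithelium, at 0.33 and Msx2 at 0.34, and for Dlx3 they were Krt84 at 0.37 and the hair cuticle keratin Krt82 at 0.37. Msx2 lay nearest to Fbp1, an enzyme of gluconeogenesis, at 0.28, the transglutaminase Tgm6 at 0.30 and Krt82 at 0.32. Hoxc13 lay nearest to the hair keratin Krt40 at 0.25, the fatty acid desaturase Fads2 at 0.27 and Rnf222 at 0.30.

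Ovol1 lay nearest to Tent5b at 0.28, Mycl at 0.32 and Cdh3, the P-cadherin of the hair matrix, at 0.32. Among the genes past the level filter, Lef1 had none as near: Cybrd1 at 0.38, Gprc5a at 0.39 and Golga7b at 0.40. Cux1 lay nearest to Arl15, Plekhh1 and Lpin3 at 0.22, 0.23 and 0.24, and Foxe1 to Otop2, the pseudogene Hnrnpa1l2-ps2 and Nxpe3 at 0.14, 0.17 and 0.18. Msx1, whose values spanned less than the 2 log2 units required, was not matched.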

How the data were processed

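Gene expression in whole skin was measured on 10 Affymetrix arrays after WT PLUS labelling of total RNA, per the labels' protocols, and mm10 is the build named in the submitters' processing notes. The deposited values, 1 per probe set and array for 28846 probe sets, were read as log2 signals because they range from 1.88 to 19.88; the log base, background correction, summarisation and normalization are not given in the sources used here. Values above 16, more than a scanner of 16 bits can read, occurred in 586 probe sets, which leaves the scale in doubt. The platform annotation gave 1 symbol to 19572 probe sets, naming 19505 genes, all found by identifier in the RefSeq table of GRCm38.p6; for 55 genes with several probe sets the highest-mean one was used. Tests were two-sided, with limma 3.58.1 in R 4.3.3 (lmFit, eBayes) and Benjamini-Hochberg adjustment at 0.05, and the code was tested on simulated data. The expansion effect had the day as a block (3 residual degrees of freedom), the slopes 4 and the fits of all 10 arrays 7. With 4 pairs an exact permutation test cannot go below 0.125. The labels number the arrays of both arms by day, which pairs them; deviations of same-day arrays correlated across genes at -0.13, -0.17, -0.10 and 0.36 at days 0, 7, 14 and 21. The p-values measure only the spread between these arrays, which may be technical, and the arrays of an arm lie on different days. The small number of arrays limits the precision. The members, lists and tests were chosen with earlier results of these data known. Text names all members. Of each list, up to 4 genes are named by the smallest p in the expansion effect. Up to 3 are named by the largest anagen minus telogen difference. Also named are the 3 nearest genes of each member whose values span at least 2 log2 units. That search covered genes past the level filter and left out predicted genes, RIKEN clones and small RNA genes. Alternatives covered array centring, quantile normalization, probe set choice, the level filter (none, or the 50th percentile), a prior variance with a trend, the fit with no day block and leaving out arrays.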

Additional observations from a re-analysis of the deposited data

Results flagged for a closer look

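In 18 groups of 4 arrays (9 factors in 2 arms), 1 value stood apart from the others by more than Dixon's 95% critical value of 0.829: Msx2 on the non-expanded array of day 14, at 4.51 against 4.15 to 4.20 on the other 3 non-expanded arrays. Chance gives about 1 such value in 20 groups, and all 4 values lie below the background median of 5.46. The inner root sheath list was also highest on that array among non-expanded skin, at a mean of 8.66; its part in the Msx2 value was not tested.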

How the results depend on the processing

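The calls of the 5 factors tested changed only when the telogen array was left out. Of the 5 then called, Msx2 had entered only through its anagen value. With no replicate block, that is, without pairing arrays by day, the expansion effect was called for 2 genes and for no factor, and with no level filter 33 genes were called in expanded skin against no surgery. Quantile normalization turned the expansion effect of Cux1 to -0.023 and the expanded slope of Dlx3 to -0.011, and centring turned the non-expanded slope of Cux1 to -0.0024; the cause was not tested. Leaving out 1 array or day at a time gave 0 to 1 called genes in the expansion effect, with Cux1 from -0.13 to 0.12. In expanded skin the slopes ranged from -3.32 to 1.35 for Foxn1, -2.64 to 0.56 for Msx2, -3.66 to 1.64 for Dlx3, -1.46 to 1.19 for Ovol1 and -0.44 to 0.021 for Cux1, with the median of the 9 from -1.46 to 0.34. In non-expanded skin they ranged from -0.071 to 0.55 for Msx2, -0.77 to 0.64 for Ovol1 and -0.20 to 0.41 for Cux1. The difference of slopes ranged from -2.92 to 2.19 for Foxn1, -2.57 to 0.15 for Msx2, -2.59 to 2.13 for Dlx3, -1.67 to 1.30 for Ovol1 and -0.86 to 0.089 for Cux1, with a median from -1.67 to 0.15. Against no surgery, non-expanded skin had 0 to 2655 called genes and 0 to 5 called factors, with a median from -4.62 to -0.011, Foxn1 from -7.58 to 0.027, Dlx3 from -7.97 to 0.20 and Ovol1 from -3.57 to 0.28. Expanded skin had 5 to 1857 called genes and 0 to 5 called factors, with a median from -4.57 to 0.25, Foxn1 from -6.93 to 0.68, Dlx3 from -7.30 to 0.86 and Ovol1 from -3.05 to 0.80. The 65 genes called in expanded skin became 1857 without telogen, 100 without non-expanded day 7, 43 without expanded day 7, 41 without non-expanded day 0, 20 without non-expanded day 21, 8 without expanded day 0 and 5 without expanded day 14. In non-expanded skin the count was 110 without its day 14 array and 1 without expanded day 7. Both extremes of the factors came from leaving out telogen or anagen, which leaves 1 array as reference. Signals near background limit what can be seen for Hoxc13, Msx1, Lef1 and Foxe1.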
